A study of Mus musculus with 10 samples.

Results

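Open chromatin was examined at the loci of 10 genes of the thymocyte lineage in libraries made from sorted thymic epithelial cells (TEC): Cd8a, Cd8b1, Cd4, Il7r, Rag1, Rag2, Tcf7, Bcl11b, Cd3e and Themis. A locus was the RefSeq span of the gene in mm10 with 10 kb on each side. Cd8a with Cd8b1 and Rag1 with Rag2 were each treated as 1 locus, which gave 8 loci for 10 of 21887 protein-coding genes. Peaks of all libraries that overlapped or touched were merged into 351411 regions, and 114 of these lay in the 8 loci. The genes were picked after their peak counts at day 6 and in the embryo had been seen, so their counts and peak strengths are a description and carry no test.

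The mice were C57BL/6 and wild type, and all 10 libraries are labelled TEC. The day 6 groups are labelled mTEC4, mTEC1 and mTEC2, and the embryonic groups are E15 (embryonic day 15) and E17 (embryonic day 17). Each of these 5 groups has 2 libraries. What the fraction names stand for is not given, and embryonic titles carry no fraction, so age and sorted fraction cannot be told apart in any comparison of day 6 with the embryo. Thymi were digested with Liberase TH and DNase before sorting, and nothing says whether the libraries of a group came from different animals, so a p-value here measures only the spread between libraries.

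ATAC-seq maps open chromatin by the insertion of sequencing adapters by a transposase. Thymocytes develop among TEC and are far more numerous than TEC in the thymus. They enter as progenitors that receive interleukin 7 and Notch signals, rearrange their receptor genes with the RAG recombinase, express both CD4 and CD8, and are then selected on TEC. In TEC, the genes for the co-receptors, the CD3 chains and the recombinase are not part of the known programme.

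The day 6 lists held 40858 to 101917 peaks each and the embryonic lists 86237 to 151646. The authors' peak caller gave each peak a −log10 q, the negative logarithm of its adjusted p-value within that library, and peaks with a value of at least 5 are here called strong. Strong peaks made up 6.33% to 14.3% of the day 6 lists and 41.7% to 48.8% of the embryonic lists. These values are the authors' own, and they rank peaks within a list. Where values of both ages stand side by side they come from different lists, and their difference is no measure of a change at the site. Without read counts the depth is unknown, and where no peak is listed the site may still be open. In a bulk library a site open in fewer cells and a site less open in each cell cannot be told apart. The epithelial label was set beside region counts at marker loci. A mean over 26 TEC and epithelial genes stood at 0.984 to 1.51 times the mean regions per gene of the library at day 6 and at 1.56 to 1.68 times in the embryo. Every gene of that list had a region at both ages, though Foxn1 and Krt5 had none in mTEC4. Housekeeping genes stood at 1.05 to 1.54 at day 6 and 0.915 to 1.15 in the embryo. A list of 33 other thymocyte genes stood at 0.957 to 1.82 and 1.20 to 1.40, and each of them had a region at both ages. At day 6 these counts therefore cannot tell epithelium from other cells.

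Promoter sequences are shown for the 6 genes that had a peak over their promoter window, with the bases under a called peak in capitals. They come from the RefSeq promoter table of build GRCm38.p6, which has the coordinates of mm10. Each runs from 250 bases before a start listed in that table to 50 bases after it. A listed start need not be the end of the gene span. The printed Tcf7 window ends at 52283264, inside the gene span, which ends at 52283383. The table had entries for 8 of the 10 genes, in 10 windows. The windows are chr10:28668145-28668444 on the plus strand for Themis, chr6:71373177-71373476 on the plus strand for Cd8a, chr9:45009562-45009861 on the minus strand for Cd3e, chr15:9529827-9530126 on the minus strand for Il7r, chr2:101649483-101649782 on the minus strand for Rag1, and chr11:52282965-52283264 on the minus strand for Tcf7.
Themis: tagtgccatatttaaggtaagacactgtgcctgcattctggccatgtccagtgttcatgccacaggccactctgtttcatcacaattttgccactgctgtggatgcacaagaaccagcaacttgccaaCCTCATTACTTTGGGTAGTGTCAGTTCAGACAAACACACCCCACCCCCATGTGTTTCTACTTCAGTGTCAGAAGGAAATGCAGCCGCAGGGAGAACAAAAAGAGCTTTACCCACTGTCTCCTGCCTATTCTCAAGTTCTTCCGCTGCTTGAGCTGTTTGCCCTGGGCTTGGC
Cd8a: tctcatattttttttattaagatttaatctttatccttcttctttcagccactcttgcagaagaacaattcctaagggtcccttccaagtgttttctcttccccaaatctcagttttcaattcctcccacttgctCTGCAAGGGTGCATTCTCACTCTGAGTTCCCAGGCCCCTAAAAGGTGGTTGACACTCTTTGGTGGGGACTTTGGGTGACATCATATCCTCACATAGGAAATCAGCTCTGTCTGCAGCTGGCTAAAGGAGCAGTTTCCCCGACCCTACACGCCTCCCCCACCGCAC
Cd3e: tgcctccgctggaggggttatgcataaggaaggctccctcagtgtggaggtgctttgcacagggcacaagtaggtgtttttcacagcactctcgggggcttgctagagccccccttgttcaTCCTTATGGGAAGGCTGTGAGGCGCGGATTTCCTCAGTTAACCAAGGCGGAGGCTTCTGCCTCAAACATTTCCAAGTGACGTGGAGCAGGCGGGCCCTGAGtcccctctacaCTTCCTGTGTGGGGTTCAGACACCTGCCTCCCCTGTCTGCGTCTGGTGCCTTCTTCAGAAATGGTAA
Il7r: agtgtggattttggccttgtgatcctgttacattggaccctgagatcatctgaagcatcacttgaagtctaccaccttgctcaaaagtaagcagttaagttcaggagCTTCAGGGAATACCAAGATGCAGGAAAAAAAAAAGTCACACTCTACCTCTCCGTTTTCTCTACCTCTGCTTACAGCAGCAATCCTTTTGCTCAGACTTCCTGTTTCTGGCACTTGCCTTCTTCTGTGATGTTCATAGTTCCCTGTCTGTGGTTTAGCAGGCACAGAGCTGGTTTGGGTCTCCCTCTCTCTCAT
Rag1: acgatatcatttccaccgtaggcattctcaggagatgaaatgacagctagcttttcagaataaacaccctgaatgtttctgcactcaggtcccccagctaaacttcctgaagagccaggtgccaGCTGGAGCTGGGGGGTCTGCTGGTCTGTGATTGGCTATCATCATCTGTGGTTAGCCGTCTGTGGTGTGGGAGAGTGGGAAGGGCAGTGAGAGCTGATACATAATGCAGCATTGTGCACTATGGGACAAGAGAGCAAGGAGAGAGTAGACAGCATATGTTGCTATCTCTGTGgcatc
Tcf7: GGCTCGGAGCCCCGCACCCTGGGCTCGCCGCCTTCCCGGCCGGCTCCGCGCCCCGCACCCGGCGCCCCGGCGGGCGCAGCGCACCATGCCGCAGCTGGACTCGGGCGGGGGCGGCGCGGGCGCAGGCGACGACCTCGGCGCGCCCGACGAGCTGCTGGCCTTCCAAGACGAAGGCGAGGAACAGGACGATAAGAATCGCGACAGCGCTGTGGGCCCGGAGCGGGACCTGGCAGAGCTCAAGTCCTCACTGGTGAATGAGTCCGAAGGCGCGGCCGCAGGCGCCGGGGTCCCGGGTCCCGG

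The Themis window was called in 5 of the 6 day 6 libraries and in no embryonic library. Themis encodes a protein that tunes receptor signalling during thymocyte selection. The capitals cover 172 of its 300 bases, and every peak there was weak, with −log10 q between 1.16 and 1.65. The Cd8a window was called in mTEC1 replicate 2 and mTEC2 replicate 1, with −log10 q of 2.21 and 2.32, and the Cd3e window in mTEC4 replicate 2 and mTEC2 replicate 2, with at most 1.36. The Il7r and Rag1 windows were called in mTEC2 replicate 1 alone, at 1.29 and 3.56. None of these 4 was called in the embryo. The printed Tcf7 window lay wholly under peaks and was called in 1 day 6 library and 3 embryonic libraries, and another Tcf7 window in the 3 embryonic libraries alone. The Rag2 and Bcl11b windows held no peak. That of Bcl11b, at 108003365 to 108003664, lies inside the gene span, which ends at 108004145.

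Of all 32851 promoter windows in the table, 43.4% had a peak in at least 1 day 6 library and 49.5% in at least 1 embryonic library. A peak at day 6 with none in the embryo was found at 2.27% of all windows, which is 5.22% of those with a peak in at least 1 day 6 library. Among windows with a peak in at least 2 day 6 libraries it was 1.75%. The windows of Themis, Cd8a, Cd3e, Il7r and Rag1 were of this kind, which is the contrast the genes were chosen on.

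Short binding words of thymocyte and epithelial factors were searched on both strands of these windows. The word TGTGGT of RUNX factors was in 16.8% of all promoter windows, CTTTGA or CTTTGT of TCF/LEF factors in 31.2%, AGATAA of GATA factors in 11.2%, and CAGCTG or CAGGTG, E-boxes bound by E proteins, in 32.9%. The ETS word CAGGAA was in 30.6%, the Ikaros word TGGGAA in 25.6%, the AP-1 word TGANTCA in 7.81%, the FOXN1 core GACGC in 27.2%, the SP/KLF word GGGCGG in 35.7% and the NF-Y word CCAAT in 37.4%. The Rag1 window held TGTGGT at bases 170 to 175 and again at 184 to 189, counted from 1 at the left, both under the peak of mTEC2 replicate 1. It also held an Ikaros word at 199 to 204 and an NF-Y word at 154 to 158 under the peak, and E-boxes at 116 to 121 and 123 to 128 and an ETS word at 104 to 109 that were not wholly under it. The Il7r window held TGTGGT at bases 254 to 259 and ETS words at 128 to 133 and 204 to 209 under a peak of the same library, and an NF-Y word at 32 to 36 outside it. The Cd8a window held an E-box at bases 249 to 254 and an Ikaros word at 162 to 167. The Cd3e window held an Ikaros word at 128 to 133, an ETS word at 235 to 240, an E-box at 254 to 259 and the FOXN1 core at 272 to 276. The Tcf7 window held an E-box at 92 to 97 and SP/KLF words at 103 to 108 and 109 to 114. All these matches at Cd8a, Cd3e and Tcf7 lay under peaks, and the Themis window held none of the words. No matches in a printed window shared a base. A match describes the letters and does not show binding.

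Summed over the 8 loci, the day 6 libraries had 15 and 25 called regions in mTEC4, 31 and 35 in mTEC1, and 54 and 26 in mTEC2. The E15 libraries had 28 and 30 and the E17 libraries 23 and 42. The means were 31.0 ± 13.1 at day 6 (SD, n = 6) and 30.8 ± 8.06 in the embryo (SD, n = 4), a difference of 0.25 regions, and the groups overlapped. The sum hides opposite differences between loci, since Bcl11b had fewer regions at day 6 and the Cd8a and Cd8b1 locus more. Without Bcl11b the means were 24.2 ± 9.62 at day 6 and 14.8 ± 3.30 in the embryo.

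Day 6 lists also held fewer regions per gene in general, with a mean over all genes of 1.68 to 3.55 per library against 3.54 to 5.64 in the embryo. Divided by that mean, the average of the 8 loci was 0.940 and 1.30 in mTEC4, 1.68 and 1.73 in mTEC1, and 1.90 and 1.94 in mTEC2. It was 0.858 and 0.948 in E15 and 0.812 and 0.930 in E17. Both mTEC1 and both mTEC2 libraries thus stood above every embryonic library, whereas mTEC4 replicate 1 lay within the embryonic range. This scale does not correct for window length, which ran from 30.9 kb at Cd3e to 235 kb at Themis. In mTEC2 replicate 2 the value was 4.77 at Bcl11b and 2.98 at Themis, but 0.596 at Cd8a and Cd8b1. The groups mTEC1 and mTEC2 did not overlap with mTEC4, and with 2 libraries in each no test was made. On this scale the means by locus were higher at day 6 at every locus but Bcl11b, which had 2.80 at day 6 and 3.67 in the embryo.

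**Figure D1:**
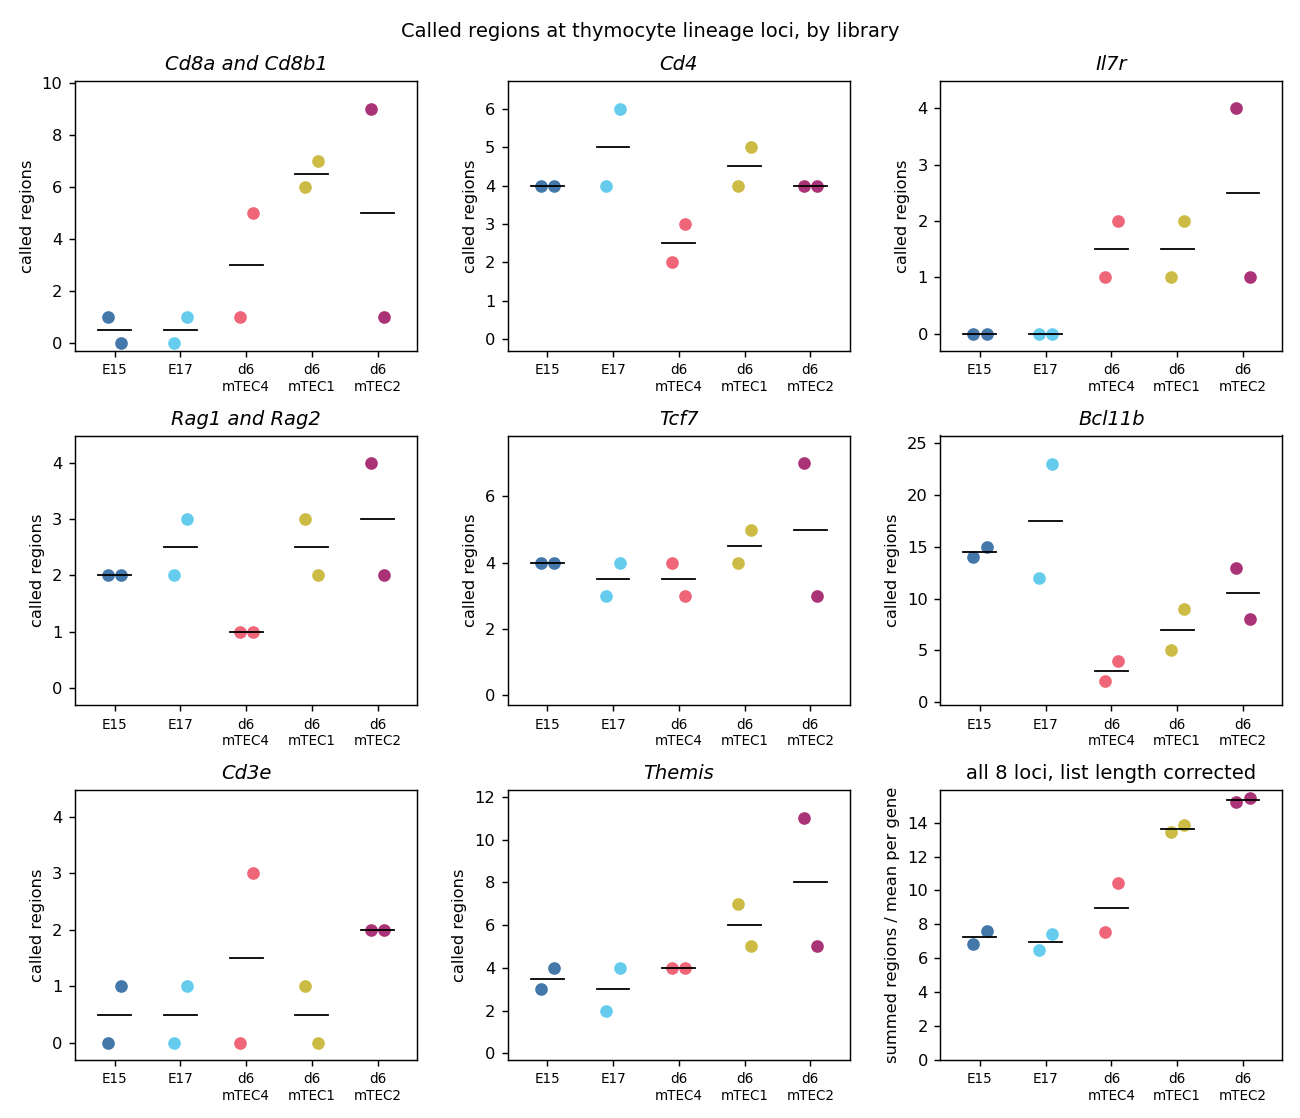
Called regions (y axis) in each library (points) of the 5 groups (x axis), with 1 panel for each of the 8 loci, and in the last panel the sum over the 8 loci divided by the mean regions per gene of the library. Short lines mark the mean of the 2 libraries. At Il7r every day 6 library lies above the 4 embryonic libraries, which are all at 0, and at Bcl11b the embryonic points lie higher.

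Across all 21026 genes with at least 1 region, the region count was compared between day 6 and embryonic libraries by an exact two-sided permutation test with 210 arrangements of the library labels and Benjamini-Hochberg adjustment. At an adjusted p of at most 0.05, 0.128% of genes were called higher at day 6 and 19.1% lower. The counts did not overlap between the groups, with day 6 higher, at 0.171% of genes, and with day 6 lower at 16.3%. Of the 8 loci, 1 had no overlap with day 6 higher (Il7r) and 0 with day 6 lower. The loci were chosen on this contrast, so nothing is read from that count.

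The co-receptor genes Cd8a and Cd8b1, which encode the chains of CD8, lie next to each other on chromosome 6, between 71322788 and 71379171. Several enhancers of both genes are known to lie around and between them. The locus had 1 and 5 regions in mTEC4, 6 and 7 in mTEC1, and 9 and 1 in mTEC2. It had 1 and 0 in E15 and 0 and 1 in E17. The mean was 4.83 ± 3.25 regions at day 6 (SD, n = 6) and 0.5 ± 0.577 in the embryo (SD, n = 4). Of the 6 day 6 libraries 4 stood above every embryonic one, and mTEC4 replicate 1 and mTEC2 replicate 2 did not. Among 3343 genes with a window 0.8 to 1.25 times as long, 96.5% had fewer regions than this locus in mTEC1 replicate 1, 97.7% in mTEC1 replicate 2 and 97.8% in mTEC2 replicate 1. The share was 89.2% in mTEC4 replicate 2, but 11.7% in mTEC4 replicate 1 and 15.5% in mTEC2 replicate 2. In the embryo it was at most 6.25%. With genes of equal count included, the share was 42.6% in mTEC4 replicate 1 and 47.0% in mTEC2 replicate 2. It was then at most 15.5% in the embryo.

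Of the 13 regions at Cd8a and Cd8b1, 12 were called at day 6 alone and 8 of those in at least 2 libraries. The region at 71337778 to 71337986, which is 286 bp beyond the high-coordinate end of Cd8b1, was called in 4 day 6 libraries with −log10 q between 1.96 and 3.76. The one at 71341227 to 71341475, also in the space between the genes, was called in 4 with 1.18 to 5.37. The one at 71369393 to 71369777, which is 3650 bp from Cd8a on its promoter side, was called in 4 with 1.68 to 3.91. All 3 were called in both mTEC1 libraries and in mTEC4 replicate 2. On the far side of Cd8b1, the region at 71318793 to 71319031 was called in 3 day 6 libraries, with up to 4.02. The strongest peak of the locus, at 71338264 to 71338369, was called in mTEC1 replicate 1 alone, with a −log10 q of 6.19 and a fold enrichment of 6.46, and exceeded 94.1% of its list. The sole region called in the embryo, at 71378494 to 71378733 inside Cd8a, was also called in mTEC2 replicate 1. It was weak in all 3 libraries, with 2.73 at day 6 and 3.0 and 3.09 in the embryo.

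The windows of Cd8a and Cd8b1 leave a gap between them. In that gap, outside the locus as defined, a region at 71353778 to 71353985 was called in 3 day 6 libraries with −log10 q of at most 3.36, and another at 71360392 to 71360467 in mTEC1 replicate 2. Neither was called in the embryo. At the outer edge of the locus, the last region inside lay 9679 bp from a gene and the first outside 11432 bp away, and each was called in 1 day 6 library. At Cd4 the last inside, at 9699 bp, was called in 1 embryonic library, and the first outside, at 10149 bp, in 1 day 6 library and 3 embryonic libraries.

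**Figure D2:**
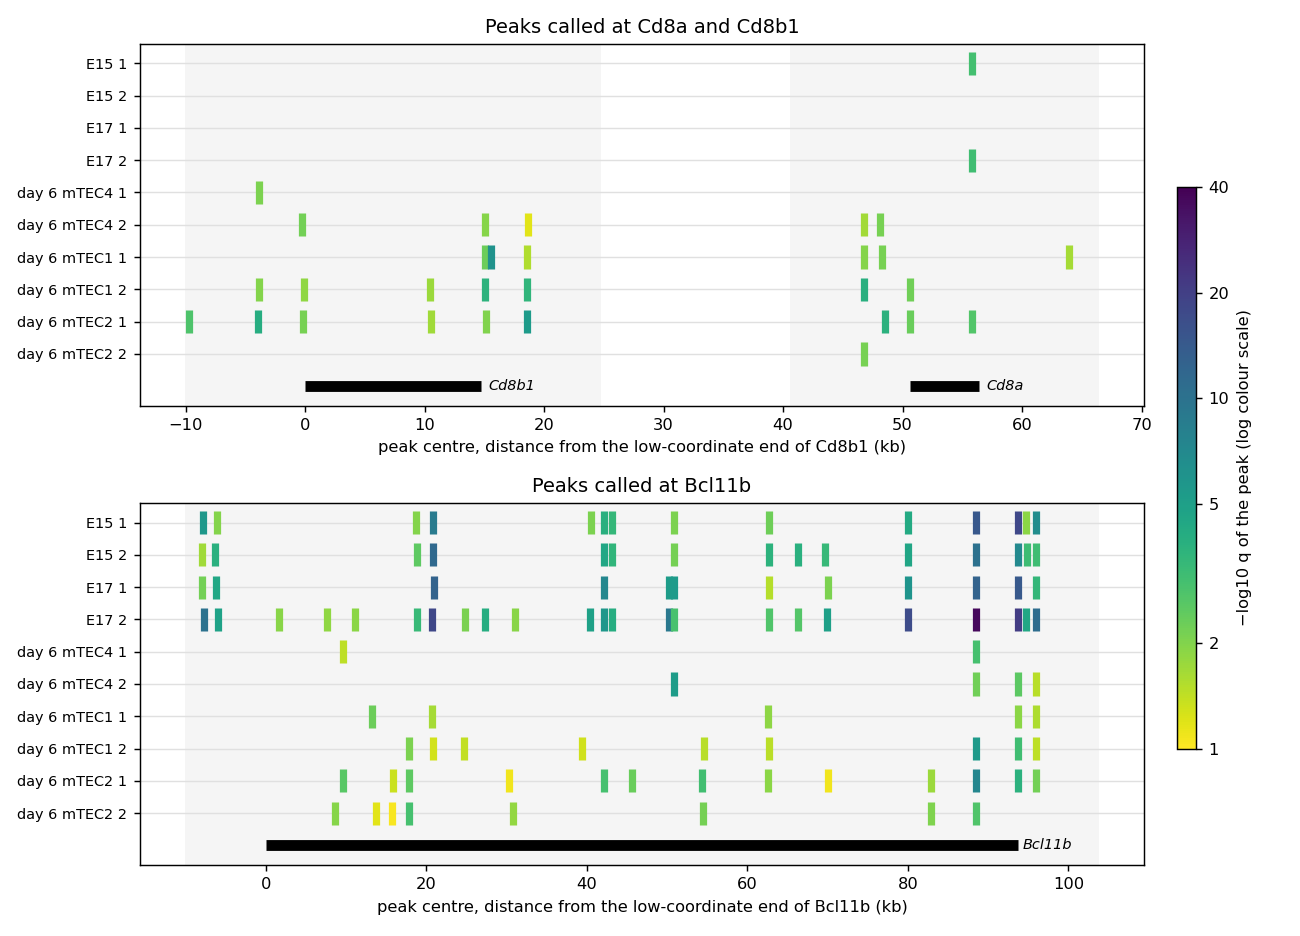
Peaks called in each library (rows) along the Cd8a and Cd8b1 locus (top) and the Bcl11b locus (bottom), as distance of the peak centre from the low-coordinate end of the gene in kb (x axis), coloured by −log10 q on a log colour scale, with gene spans as black bars and the windows shaded grey. At Cd8a and Cd8b1 the peaks are almost all in day 6 libraries and mostly of light colours, and at Bcl11b the dark, strong peaks are in the embryonic libraries.

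Cd4 encodes the other co-receptor and spans 124864693 to 124888247 on chromosome 6. It had 2 and 3 regions in mTEC4, 4 and 5 in mTEC1, and 4 and 4 in mTEC2, against 4 and 4 in E15 and 4 and 6 in E17. The means of 3.67 ± 1.03 at day 6 and 4.50 ± 1.0 in the embryo (SD, n = 6 and n = 4) differed by less than the spread between libraries. Divided by the mean per gene of the library, the direction turned, with 1.003 to 2.38 at day 6 and 0.980 to 1.13 in the embryo. Of the 4 regions called most often, 3 lay in the span of a neighbouring gene. The region at 124857011 to 124857788, within the span of P3h3, a collagen hydroxylase gene, was called in all 10 libraries, with −log10 q of 2.06 to 4.22 at day 6 and 13.3 to 22.6 in the embryo. Regions at 124859854 to 124860053 and at 124863482 to 124863999 lay in Gpr162 and were called in 3 day 6 libraries and all 4 embryonic libraries. Inside Cd4, the region at 124879375 to 124879642 was called in 1 library of each day 6 group, with up to 3.39, and in all 4 embryonic libraries, with 3.59 to 11.4. The window held 4 regions called at day 6 alone, and 3 of them were in a single library.

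Cd3e, on chromosome 9 from 44998735 to 45009663, encodes the epsilon chain of CD3, which carries the signal of the T cell receptor. It had 0 and 3 regions in mTEC4, 1 and 0 in mTEC1, and 2 and 2 in mTEC2, against 0 and 1 in both E15 and E17. All its peaks were below the strong level, with a highest −log10 q of 4.21 in mTEC4 replicate 2 and 3.97 in E15 replicate 2. The region called most often, at 44992778 to 44993109, was found in 2 day 6 libraries and 1 embryonic library. Near the high-coordinate end but inside the gene, the region at 45009249 to 45009628 was found in both mTEC2 libraries. Its peaks had −log10 q of 1.36 and 2.24. The region across that end, at 45009640 to 45009740, was called in mTEC4 replicate 2 alone, with 1.29.

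Il7r encodes the receptor chain for interleukin 7, a survival signal of early thymocytes, and spans 9506159 to 9529941 on chromosome 15. It had 1 and 2 regions in mTEC4, 1 and 2 in mTEC1, and 4 and 1 in mTEC2, and 0 in each of the 4 embryonic libraries. Of the 8 loci it was the one whose groups did not overlap. Over all genes, 8.3% had a region in at least 1 day 6 library and none in the embryo, and 0.0999%, Il7r among them, had one in all 6 and none in the embryo. The level was low all the same. Only 1 of its 7 regions, at 9500807 to 9502203 and 3956 bp beyond the low-coordinate end of the gene, was called more than once, in 5 libraries with −log10 q of 1.01 to 2.14. The strongest peak of the locus reached 3.42, in mTEC2 replicate 2. The share of 5040 genes of like window length with fewer regions was 13.9% to 66.3% in the day 6 libraries. With genes of equal count included it was 42.7% to 81.6%. The locus was thus not rich in regions beside other genes.

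Rag1 and Rag2 encode the recombinase that cuts receptor genes and lie side by side on chromosome 2, from 101624712 to 101649532. The locus had 1 and 1 regions in mTEC4, 3 and 2 in mTEC1, and 4 and 2 in mTEC2, against 2 and 2 in E15 and 2 and 3 in E17. The means of 2.17 ± 1.17 at day 6 and 2.25 ± 0.50 in the embryo (SD, n = 6 and n = 4) differed by less than the spread between libraries. Divided by the mean per gene of the library, they were 0.888 at day 6 and 0.523 in the embryo, and the groups still overlapped. The regions called at the 2 ages were in part not the same ones. A region at 101628450 to 101629185, in the span that Rag2 shares with Iftap, was called in all 10 libraries, with −log10 q of 2.72 to 7.42 at day 6 and 17.3 to 31.7 in the embryo. On the promoter side of Rag1, the region at 101652762 to 101653111 was called in no day 6 library and in all 4 embryonic libraries, with 6.44 to 23.5. Nearer to the gene, 1023 bp from its end, the region at 101650555 to 101650695 was called in both mTEC1 and both mTEC2 libraries and in no other. Its 4 peaks had −log10 q of 4.28 to 5.17 and exceeded 83.2% to 89.0% of their lists. Another region, at 101657844 to 101657968, was called in mTEC2 replicate 1, with 4.75.

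Tcf7, on chromosome 11 from 52246527 to 52283383, encodes TCF1, the factor that Notch signals switch on in early T cell progenitors. It had 4 and 3 regions in mTEC4, 4 and 5 in mTEC1, and 7 and 3 in mTEC2, against 4 and 4 in E15 and 3 and 4 in E17. The means of 4.33 ± 1.51 at day 6 and 3.75 ± 0.50 in the embryo (SD, n = 6 and n = 4) differed by less than the day 6 spread. The widest region, at 52282524 to 52283550 over the high-coordinate end and the promoter windows of the gene, was called in all 10 libraries. It was weak throughout, with −log10 q of 1.69 to 2.80 at day 6 and 2.97 to 4.80 in the embryo. Regions inside the gene at 52253862 to 52254260 and at 52261916 to 52262465 were called in 3 day 6 libraries and all 4 embryonic libraries, with up to 4.25 at day 6 and up to 19.1 in the embryo. The region at 52275421 to 52275696, also inside the gene, was called in all 6 day 6 libraries and in no embryonic one. Its −log10 q was 2.04 and 1.06 in mTEC4, 1.56 and 3.66 in mTEC1, and 3.61 and 2.46 in mTEC2. Of the 68 regions called at day 6 alone it was the sole one found in all 6 libraries, though its weakest peak exceeded only 0.82% of its list. The share of all regions with that pattern is not given here, so nothing is read from it.

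Bcl11b, on chromosome 12 from 107910403 to 108004145, encodes a zinc finger factor that fixes progenitors in the T cell lineage and is also active in skin and neurons. It had 2 and 4 regions in mTEC4, 5 and 9 in mTEC1, and 13 and 8 in mTEC2, against 14 and 15 in E15 and 12 and 23 in E17. The mean was 6.83 ± 3.97 at day 6 (SD, n = 6) and 16.0 ± 4.83 in the embryo (SD, n = 4), and only mTEC2 replicate 1 reached the embryonic range. Strong peaks were 3 of 41 at day 6 and 23 of 64 in the embryo. Its strongest region, at 107998845 to 107999010 inside the gene, was called in 5 day 6 libraries, with −log10 q of 2.24 to 7.35, and in all 4 embryonic libraries, with 10.2 to 37.0.

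The region at 108003868 to 108004340, across the high-coordinate end of Bcl11b, was called in 4 day 6 libraries with −log10 q of at most 3.77 and in all 4 embryonic libraries with 7.02 to 20.7. It lies 203 bp from the promoter window of the table, which itself held no peak. Regions at 108006231 to 108006548, just outside the gene, and at 107972893 to 107973280, inside it, were also called in all 4 embryonic libraries and in 4 and 3 day 6 libraries. Of 10 regions called in all 4 embryonic libraries at Bcl11b, 3 were called in no day 6 library. In the embryonic libraries 92.1% to 98.3% of 1650 genes of like window length had fewer regions than Bcl11b. In the day 6 libraries this share ran from 22.1% in mTEC4 replicate 1 to 99.2% in mTEC2 replicate 2, so Bcl11b stood high in mTEC2 as well once set beside other genes.

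Themis spans 28668360 to 28883820 on chromosome 10 and is the longest of the genes. It had 4 and 4 regions in mTEC4, 7 and 5 in mTEC1, and 11 and 5 in mTEC2, against 3 and 4 in E15 and 2 and 4 in E17. The mean was 6.00 ± 2.68 at day 6 and 3.25 ± 0.957 in the embryo (SD, n = 6 and n = 4). Among 597 genes of like window length, 21.4% to 68.2% had fewer regions than Themis in the day 6 libraries. In the embryonic libraries 2.85% to 9.38% did. Of the 26 regions at Themis, 20 were called at day 6 alone and 16 of those in a single library. In the embryo the strong peaks lay in 2 regions that were also called at day 6. The region at 28844052 to 28844408 was called in 4 day 6 libraries with −log10 q of 1.76 to 2.74 and in all 4 embryonic libraries with 12.8 to 30.1. The one at 28730238 to 28730425 was called in 3 day 6 libraries with 2.71 to 4.95 and in all 4 embryonic libraries with 11.8 to 34.2. Of the regions called at day 6 alone, that over the promoter shown above, at 28668273 to 28668589, had the most libraries and a highest −log10 q of only 1.65. The one at 28814708 to 28814895 was called in both mTEC4 libraries, with 5.50 and 3.85, and in mTEC2 replicate 1, with 3.55.

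Over the 8 loci, 68 of the 114 regions were called at day 6 alone, 24 at both ages and 22 in the embryo alone. Of the 68, 46 were called in a single library, 9 in 2, 5 in 3, 5 in 4, 2 in 5 and 1 in 6. Over all regions called at day 6 alone, 79.6% were in a single library. mTEC2 replicate 1 held 37 of the 68, and the other day 6 libraries 10 to 19. Of regions called in at least 1 day 6 library, 70.5% of all regions were called in no embryonic library, and of those called in at least 3, 29.1%. For those called in at least 2 it was 44.7%. At the 8 loci, 39 regions were called in at least 2 day 6 libraries and 22 of them in no embryonic library, and 28 were called in at least 3 and 13 of them in no embryonic library. Of 21 regions called in all 4 embryonic libraries, 4 were called in no day 6 library, beside 22.9% over all regions, and 3 of the 114 were called in all 10 libraries, beside 2.76%. By place, 46 of the 68 regions called at day 6 alone lay inside a member gene, 20 in a flank and 2 in another gene.

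Replicates of the day 6 groups shared fewer regions than those of the embryonic groups, at the loci and over all regions alike. Of the regions called in either library of a group, 7 of 33 were called in both in mTEC4, 19 of 47 in mTEC1 and 14 of 66 in mTEC2, beside 19.9%, 20.1% and 22.0% over all regions of those groups. In E15 it was 26 of 32 and in E17 23 of 42, beside 66.7% and 51.2% over all regions.

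**Figure D3:**
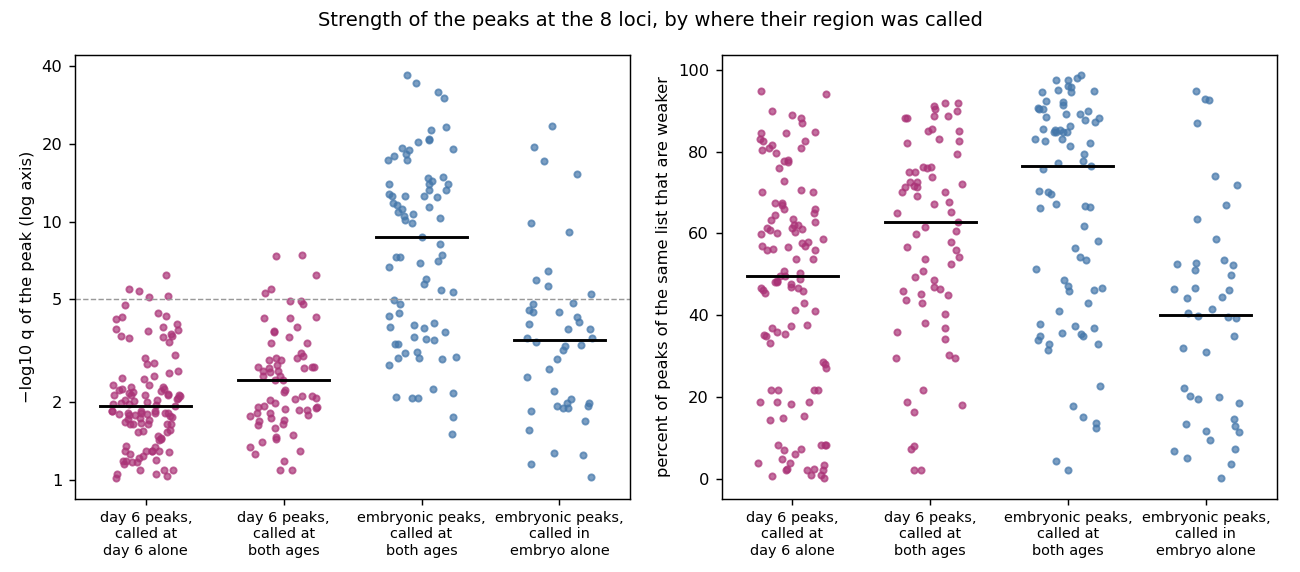
Strength of every peak at the 8 loci, as −log10 q (left, log axis) and as the percent of peaks of its own list that are weaker (right), for regions called at day 6 alone, at both ages (day 6 and embryonic peaks separately) and in the embryo alone. Points are peaks and black lines medians; the dashed line marks a −log10 q of 5. Peaks called at day 6 alone lie mostly below that line, with a median of 1.93.

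Peaks of regions called at day 6 alone were weak on the authors' scale. Their 115 peaks had a median −log10 q of 1.93, a highest of 6.19 and 5 strong peaks. That is 4.35% strong, beside 2.59% over all regions called at day 6 alone. The 71 day 6 peaks in regions also called in the embryo had a median of 2.44, and 7.04% were strong, beside 20.5% over all such regions. The 79 embryonic peaks of those same regions had a median of 8.73, and 64.6% were strong, beside 62.9% over all such regions. The 44 peaks in regions called in the embryo alone had a median of 3.47, and 22.7% were strong, beside 20.6%. Strong peaks were rarer at day 6 everywhere, with 10.9% of all day 6 peaks and 45.0% of all embryonic peaks, so levels were also set against each peak's own list. The median peak of a region called at day 6 alone exceeded 49.7% of its list at the 8 loci, and 36.3% over all regions of that kind. For regions called at both ages, the median day 6 peak exceeded 62.8% of its list at the 8 loci, and 67.3% over all such regions.

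Of the 115 peaks called at day 6 alone at the loci, 3 stood within the strongest 10% of their list, and over all regions of that kind 6311 of 234261 did. By locus, the strong day 6 peaks were 3 of 41 at Bcl11b, 3 of 13 at Rag1 and Rag2, 2 of 29 at Cd8a and Cd8b1 and 2 of 36 at Themis. Cd4, Il7r, Tcf7 and Cd3e had 0 strong peaks at day 6. In the embryo 61 of 123 peaks were strong, with 15 of 18 at Cd4, 8 of 9 at Rag1 and Rag2, 23 of 64 at Bcl11b, 8 of 13 at Themis and 7 of 15 at Tcf7. Most of those in the Cd4 window lay in the spans of P3h3 and Gpr162, not in Cd4. Those at Rag1 and Rag2 lay in the region shared with Iftap and in the one at 101652762 to 101653111. Most of the strong day 6 peaks at Rag1 and Rag2 also lay in the shared region. A strong peak in at least 1 day 6 library was found at 66.1% of all genes, and in all 4 embryonic libraries at 74.4%.

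Other genes of the thymocyte programme were counted from a list of 33 that holds none of the members. Of these, 0 were called higher and 3 lower at day 6 by the exact permutation test with Benjamini-Hochberg adjustment over all genes, beside the 0.128% and 19.1% given above. At an unadjusted p under 0.05, 213 of the 21026 genes were higher and 8213 lower. Skap1, an adaptor of T cell adhesion, had 6.17 ± 3.60 regions at day 6 (SD, n = 6) and 16.2 ± 6.65 in the embryo (SD, n = 4; adjusted permutation p = 0.0497). Prkcq, a kinase below the T cell receptor, had 5.33 ± 2.50 at day 6 and 14.0 ± 4.32 in the embryo (adjusted permutation p = 0.0497), and Tcf12, an E protein, had 6.33 ± 2.07 at day 6 and 15.5 ± 7.05 in the embryo (adjusted permutation p = 0.0343). All day 6 libraries lay below all embryonic ones at Tcf12, and not at Skap1 or Prkcq. With each list shortened to the length of the shortest, 0 genes of any list were called in either direction, and the same held when any library other than mTEC2 replicate 1 was left out. The median difference over the list was -1.42 regions, against -1.25 over all genes. Relative to the mean of all genes, the level of the list was 0.957 to 1.82 at day 6 and 1.20 to 1.40 in the embryo, so the groups overlapped.

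Ptcra, which encodes the chain that pairs with the first rearranged receptor chain, had 1.67 ± 0.816 regions at day 6 and 3.25 ± 0.50 in the embryo. Lck, the kinase bound to the co-receptors, had 4.0 ± 1.41 at day 6 and 6.50 ± 1.29 in the embryo, and Gata3, a factor of the CD4 lineage, had 2.83 ± 1.72 at day 6 and 4.50 ± 1.0 in the embryo. None of these 3 passed the test, with adjusted permutation p of 0.0894, 0.119 and 0.309. A positive difference, picked out after the values were seen, was found at Dntt, which encodes the polymerase that adds bases at receptor joints. Dntt had 2, 4, 2, 4, 9 and 1 regions at day 6 and 0, 1, 1 and 1 in the embryo. It pointed the way of Cd8a and Cd8b1 and did not pass the test (adjusted permutation p = 0.143).

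Marker genes of other cell types were counted in the same way. Their counts stand beside the same 19.1% of all genes called lower and 0.128% called higher at day 6. Of 9 pan-leukocyte genes 0 were called in either direction. Their mean level was 1.06 to 1.54 times the mean of all genes at day 6 and 0.942 to 1.20 times in the embryo. Ptprc, which encodes the leukocyte antigen CD45, had a region in all 10 libraries. The counts were 2 to 7 at day 6 and 2 to 5 in the embryo. Its strong peaks numbered 0 at day 6 and 4 in the embryo. Over all lists, 10.9% of day 6 peaks and 45.0% of embryonic peaks were strong. In macrophage and dendritic genes, 1 of 15 was lower at day 6 and 0 were higher by the same test, and the level was 0.973 to 1.24 at day 6 and 0.719 to 0.756 in the embryo.

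In each of the other leukocyte and blood lists, 1 gene was lower at day 6 (adjusted permutation p = 0.0343) and 0 were higher, among 8 cytotoxic and NK genes, 10 B cell genes and 8 erythroid genes with a region. These counts too stand beside 19.1% of all genes called lower and 0.128% called higher. Tbx21, a lymphocyte factor, was the cytotoxic and NK gene, and Ebf1, a B cell factor, the B cell gene. The levels of the cytotoxic and NK, the B cell and the erythroid list were 0.247 to 0.542, 0.774 to 1.13 and 0.527 to 0.860 at day 6, and 0.245 to 0.318, 1.10 to 1.31 and 0.471 to 0.534 in the embryo. The mean level over libraries was lower at day 6 for the B cell list and the TEC and epithelial list, and higher at day 6 for the 6 other lists. Every pan-leukocyte gene and every macrophage and dendritic gene had a region in at least 1 day 6 library. The B cell gene Ms4a1 and the erythroid genes Gata1 and Alas2 had none at day 6, and Cd53, Ncr1, Prf1 and Alas2 had none in the embryo. These levels were given no test, and their part in the values of the 8 loci was not tested.

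Of 26 TEC and epithelial genes, 8 (30.8%) were lower at day 6 and 0 higher, beside 19.1% and 0.128% of all genes. Foxn1, the forkhead factor that TEC development needs, had 0 and 0 regions in mTEC4, 1 and 6 in mTEC1, and 5 and 2 in mTEC2, against 7 to 10 in the embryo (adjusted permutation p = 0.0497). The largest differences, day 6 minus embryo, were -15.8 regions at Trp63, -11.8 at Grhl2, -10.1 at Cdh1 and -7.92 at Hoxa3, with adjusted permutation p of 0.0343 or 0.0497. Trp63 encodes the epithelial factor p63, and Cdh1 encodes E-cadherin. Epcam, a surface protein used to sort TEC, had 1 or 2 regions in every library, and Psmb11, a subunit of the thymoproteasome, had 1.33 ± 0.816 at day 6 and 3.25 ± 1.5 in the embryo (adjusted permutation p = 0.119). Of 12 housekeeping genes 1 was lower at day 6, Ywhaz, and 0 were higher, beside the same shares of all genes. The level of housekeeping genes was 1.05 to 1.54 at day 6 and 0.915 to 1.15 in the embryo.

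**Figure D4:**
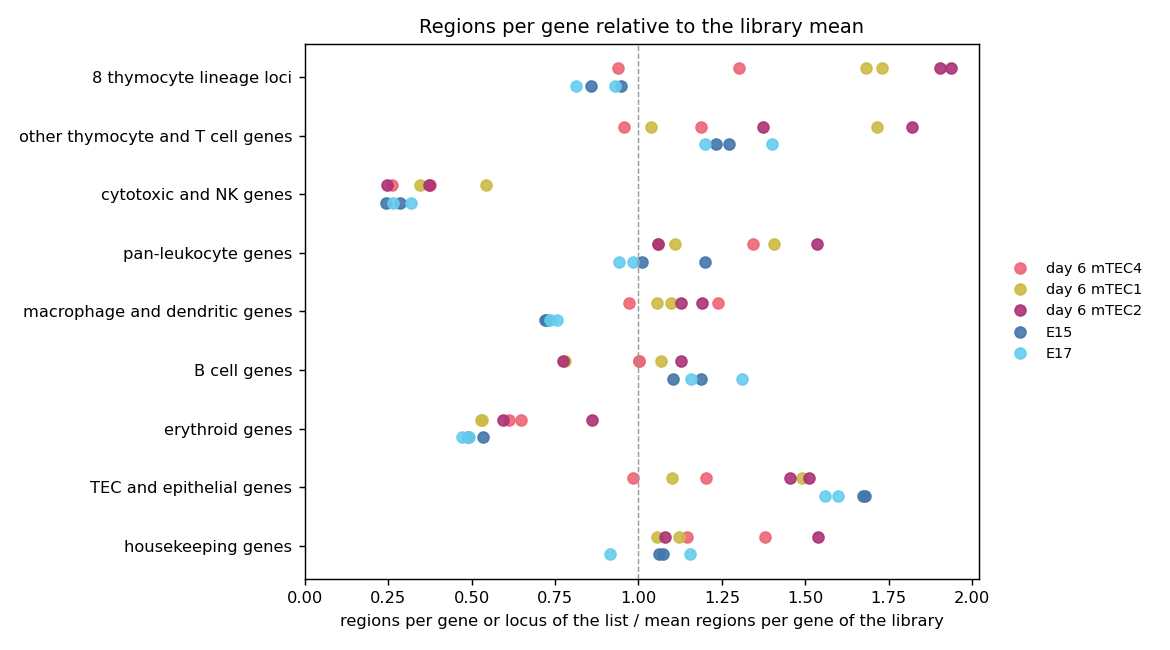
Mean regions per gene or locus of each list divided by the mean regions per gene of the library (x axis), with 1 point per library, day 6 groups on the upper and embryonic groups on the lower line of each list; the dashed line marks the mean of all genes. For the 8 thymocyte lineage loci, the mTEC1 and mTEC2 points lie at 1.68 to 1.94 and the embryonic points at 0.812 to 0.948.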

How the data were processed

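Open chromatin of 10 TEC libraries was analysed from broad peak lists called by the authors in each library on its own. The submitters' processing notes name MACS2, Bowtie2, Picard and cutadapt and the build mm10, without versions or order, and per the labels the lists describe nucleosome-free chromatin. A shift of read ends toward the cut site of the transposase is not stated by these sources. A score per peak was deposited, 10 times the −log10 q with decimals dropped, which was not used. The deposited fold enrichment is relative to the background that the caller estimated for the library. The authors' caller also computed the −log10 p (not used) and the −log10 q, each within its own list, so values set side by side across lists describe the lists. The names of the peaks carry fraction names that differ from the titles, and groups follow the titles.

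Peaks of the 10 lists that overlapped or touched were merged, and a region counted for a library with any overlapping peak. Gene spans came from a RefSeq table (GRCm38.p6) without strand, exons or introns, and promoter windows from a RefSeq promoter table. Regions per gene span with 10 kb on each side were compared as day 6 minus embryo by exact two-sided permutation over 210 arrangements, with Benjamini-Hochberg adjustment over 21026 genes. The smallest p this allows is 0.00476. The test was run on simulated counts with equal means in all libraries, apart from increases planted at day 6. That simulation did not hold the differences in list length between libraries, so it does not check the test under them.

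The loci, gene lists and naming rule were chosen with earlier results of these data known. Named were all 10 genes, up to 4 regions per locus by number of libraries and then −log10 q, up to 4 called genes per list and direction by size of difference, Ptprc, Ptcra, Lck, Gata3, Foxn1, Epcam and Psmb11, and the 5 genes most like the summed profile. A few genes selected by this rule are left out. Other regions and genes named were singled out after their values were seen. Alternatives changed the peaks used, the flank, the counting unit, the correction for list length, the replicate block and the libraries left out. Python 3.11.15, numpy 2.4.6, pandas 2.3.3 and matplotlib 3.10.9 were used.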

Additional observations from a re-analysis of the deposited data

Results flagged for a closer look

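In 4 of 17 groups checked, 1 library stood apart from the rest of its group by the size of its gap relative to the range. Chance gives about 1 in 20 for continuous values, but at the 3 loci named here for the embryo the other libraries were tied, so any difference of 1 region passes and that rate does not apply. At Il7r, mTEC2 replicate 1 had 4 regions, against 1 or 2 in the other day 6 libraries. In the embryo, E17 replicate 2 had 6 regions at Cd4 and 3 at Rag1 and Rag2, where the others had 4 and 2, and E17 replicate 1 had 3 regions at Tcf7, where the others had 4. These are differences of 1 or 2 regions, and the longest day 6 and embryonic lists are those of mTEC2 replicate 1 and E17 replicate 2.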

How the results depend on the processing

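The counts of genes called depended on the peaks used. Against 27 genes higher and 4006 lower at day 6, and 3 lower of the 33 other thymocyte genes, no gene was called in either direction (0, 0 and 0) with lists of equal length, with equal numbers of the strongest peaks, with counts divided by the mean per gene, or with the replicate block. At an unadjusted permutation p under 0.05 these settings gave 119 to 2443 genes higher and 437 to 7016 lower. The block permutes within replicate numbers, which allows 100 arrangements and a smallest p of 0.01, and same-numbered libraries correlated by -0.296 to 0.368 in their deviations, so they share only a number. With strong peaks alone the counts were 0, 12694 and 20. With covered bp they were 51, 15349 and 18, and with regions at least 0.5 covered 15, 8614 and 8. Without a flank 7 genes were higher and 2064 lower, and with a flank of 25 kb 64 were higher. Leaving out 1 library gave 0 to 30 higher, 0 to 5036 lower and 0 to 7 of the thymocyte list, and calls were made only without mTEC2 replicate 1. Without 1 library the smallest p rises to 0.00794 or 0.0119.

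The difference of 0.25 regions summed over the 8 loci became -13.6 with strong peaks alone and 5.56 after division by the mean per gene. In covered length it was -3082 bp. With lists of equal length it was 5.42 regions, and with equal numbers of the strongest peaks -0.917. It ran from -4.35 without mTEC2 replicate 1 to 4.0 without E17 replicate 2. The difference was positive at Cd8a and Cd8b1 in 20 of 21 alternatives, at Themis in 20 and at Il7r and Cd3e in 19. It was positive at Tcf7 in 16, and negative at Bcl11b in 21, at Cd4 in 18 and at Rag1 and Rag2 in 14. The loci were chosen on this difference, and alternatives that leave out 1 library reuse the same counts. These tallies are therefore no independent support. With lists of equal length the difference was -1.25 at Bcl11b, against -9.17 with full lists, -0.25 at Cd4 and 0 at Rag1 and Rag2. It was then 3.67 at Cd8a and Cd8b1, 1 at Themis, 0.833 at Cd3e, 0.75 at Tcf7 and 0.667 at Il7r. At Themis the strong peaks alone gave -1.67. One window per locus with the space between paired genes, chosen after seeing the data, raised the Cd8a and Cd8b1 difference to 5.0. The causes of these shifts were not tested, and unknown depth limits all counts.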

Other observations

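The genes whose region counts, divided by the mean per gene of the library, ran most like the sum over the 8 loci were Ppp1r21, Actr2, Chst12, Capsl and Washc2, among 13432 genes compared over 10 libraries. Pearson's r was 0.958, 0.944, 0.933, 0.931 and 0.921, given as a description of libraries that also differ in list length. Capsl lies on chromosome 15 from 9436016 to 9466039, on the low-coordinate side of Il7r. It had 0 and 2 regions in mTEC4, 4 and 3 in mTEC1, and 7 and 3 in mTEC2, against 2 in each of the 4 embryonic libraries.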
